A study of Caenorhabditis elegans with 12 samples.

Results

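The effect of the age-1 mutation on antisense small RNAs was measured in worms that lack RDE-4, by setting the 3 libraries of the age-1; rde-4 double mutant against the 3 libraries of the rde-4 single mutant. These are 6 of the 12 small RNA libraries of the series, and all 32238 genes counted in them were joined by gene name, since the authors deposited no table of this pair of strains. The rde-4 worms carried the null allele rde-4(ne301), and the double mutant carried age-1(hx546) together with rde-4(ne301). The loss of RDE-4 is thus shared by both, and age-1 is the only named mutation that differs. The WT strain (N2) and the age-1(hx546) single mutant, 3 libraries each, served to place the levels and to measure the age-1 effect with RDE-4 present. Every library came from an independent population of whole Caenorhabditis elegans hermaphrodites grown at 20 °C to young adulthood and collected before they held embryos. The study lists these mutants both with and without outcrossing to N2, and its sequencing methods do not state which were used. Each genotype is represented by a single strain, so a background variant of a strain and the named mutation cannot be told apart.

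The RDE-4 protein binds long double-stranded RNA and helps Dicer to cut it into small interfering RNAs (siRNAs). The endogenous siRNAs made in this way are loaded onto ERGO-1 in oocytes and embryos and onto ALG-3 and ALG-4 in developing sperm, where they lie antisense to their target messenger RNAs. MicroRNAs are cut by Dicer without RDE-4. AGE-1 is the catalytic subunit of phosphatidylinositol 3-kinase in insulin/IGF-1 signaling (IIS), and reducing it activates the transcription factor DAF-16/FOXO and extends lifespan. The library protocol enriched RNAs with a 5′ monophosphate, the end that Dicer leaves, so the comparison asks which antisense small RNAs respond to reduced IIS when the RDE-4 route is closed.

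The value of a gene is the number of reads that map antisense to it. The total over all genes was 2839774, 2449703 and 2591303 counts in rde-4 replicates 1 to 3, and 3201678, 2928614 and 2993967 in age-1; rde-4. All 3 double mutant totals lay above all 3 rde-4 totals (exact permutation test, two-sided, p = 0.1, the smallest value that 3 against 3 libraries allow). In spite of this, fewer genes were seen. The double mutant libraries had at least 10 counts on 2322, 2864 and 2697 genes, against 4018, 4323 and 4448 genes in rde-4. Antisense reads do not measure the alleles, and the mutated genes had too few to be tested: the rde-4 gene (chromosome III, 10217302-10218646, WBcel235) had 5, 5 and 2 counts in rde-4 and 4, 1 and 3 in the double mutant, and the age-1 gene (chromosome II, 11519328-11527054) had 3, 5 and 7 against 5, 5 and 9. The mutated genes themselves therefore do not check the strain labels. Known targets of ERGO-1 summed to 10 to 70 counts in the 6 libraries labeled rde-4 or age-1; rde-4 and to 1436 to 2620 in WT, and no such check was made of the age-1 label. In whole worms, fewer cells making a small RNA and fewer copies of it per cell cannot be told apart.

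Without RDE-4, age-1 worms had a smaller part of their antisense counts on genes that face no annotated gene and a larger part opposite rRNA and snRNA genes. Genes that face nothing in the annotation of the opposite strand (nothing opposite), took 5.17%, 5.77% and 5.33% of the counts in rde-4 and 3.13%, 3.58% and 3.49% in age-1; rde-4. The 2 strains did not overlap, and the mean fell from 5.42% ± 0.311 to 3.40% ± 0.238 (SD, n = 3), a ratio of 0.626 (exact permutation test, two-sided, p = 0.1). With RDE-4 present the same share stood higher in age-1 than in WT in every library, at 11.5% ± 1.3 against 9.01% ± 1.75, a ratio of 1.27 (exact p = 0.1). Taken over the miRNA-opposite counts instead of all counts, the ratio in the absence of RDE-4 was 0.69, and the strains still did not overlap. The class is not free of structural RNA reads: C44B7.11, with nothing opposite, had 8396, 9088 and 4665 counts in rde-4 and 10064, 9084 and 15178 in the double mutant, nearly those of the tRNA-opposite locus C44B7.15, and held 3.38% to 6.43% of the class in rde-4 and 8.67% to 14.5% in age-1; rde-4. Without it the shares were 5.14% ± 0.264 and 3.02% ± 0.229 (ratio 0.587, exact p = 0.1, no overlap), while the age-1 libraries (9.96% to 12.7%) then overlapped with WT (6.94% to 10%).

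The genes whose share rose were those that lie opposite ribosomal RNA (rRNA) and small nuclear RNA (snRNA) genes, where a read antisense to the listed gene is equally a sense read of the structural RNA. The 4 loci of the ribosomal DNA (rDNA) repeats at the end of chromosome I (F31C3.13, F31C3.14, F31C3.15 and F31C3.16) together took 3.12%, 3.68% and 4.72% of the counts in rde-4 and 6.61%, 10.9% and 13.9% in the double mutant. The strains did not overlap, with a ratio of means of 2.72 (exact p = 0.1), and among the double mutant libraries replicate 1 was the lowest and replicate 3 the highest. In WT this share was 1.99% ± 0.649 and in age-1 1.90% ± 0.97. Genes opposite snRNA genes took 0.167%, 0.166% and 0.146% in rde-4 and 0.198%, 0.344% and 0.346% in age-1; rde-4, again without overlap (ratio 1.85, exact p = 0.1). In the presence of RDE-4 the snRNA-opposite share moved the other way, with age-1 below WT in all libraries (ratio 0.618, exact p = 0.1).

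Counts opposite transfer RNA (tRNA) genes differed more between libraries than between strains, at 20.6%, 21.6% and 14.3% in rde-4 and 28.4%, 19.5% and 17.7% in the double mutant (ratio 1.16, exact p = 0.6, with overlap). Genes opposite tRNA, rRNA, snRNA and snoRNA genes together took 22.7% ± 3.55 of the counts in rde-4 and 30.8% ± 2.85 in age-1; rde-4, without overlap (ratio 1.36, exact p = 0.1). Genes opposite miRNA genes took 69.0% ± 3.52 and 62.5% ± 2.01 (ratio 0.905, exact p = 0.1, no overlap). The share of structural RNA fragments thus differed between the strains beside every gene result given here, and its part in those results was not tested. These shares are of 1 total, so a rise in any of them lowers the others.

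**Figure D1:**
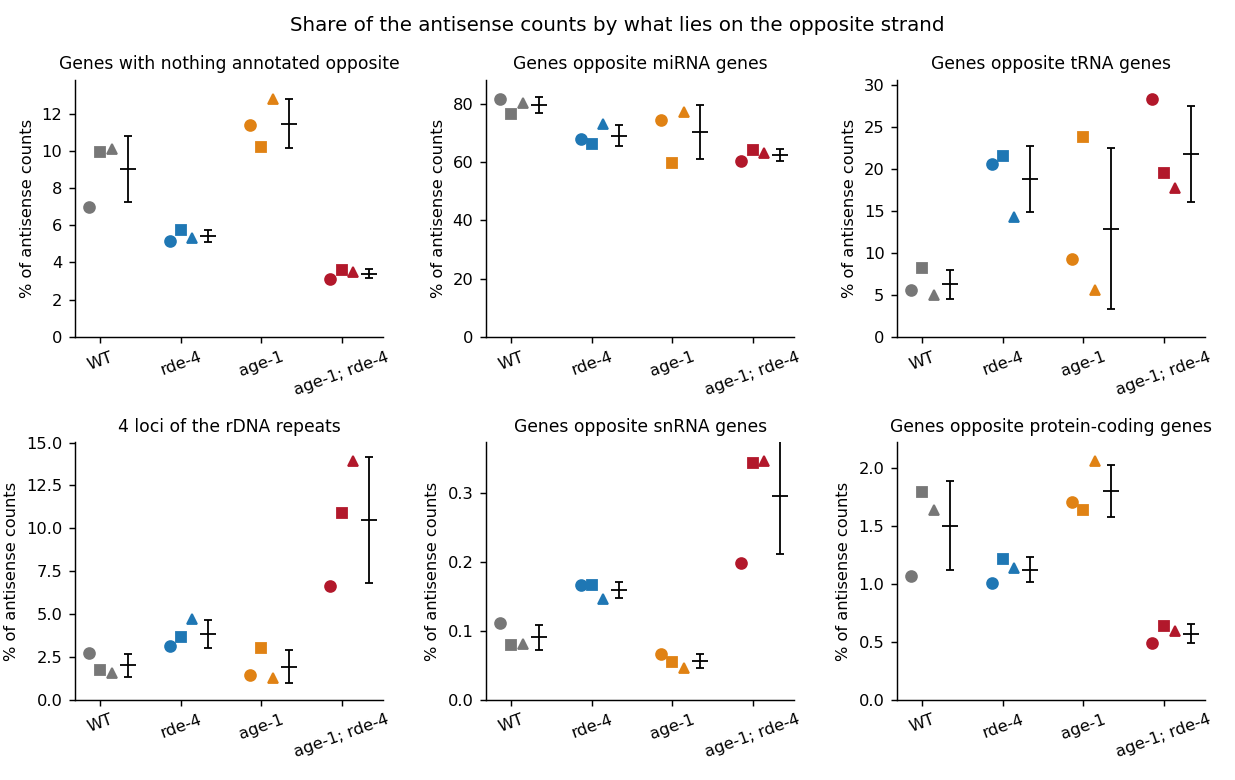
Share of all antisense counts (y axis, percent, starting at 0) held by 6 classes of genes in the 12 libraries, with circles for replicate 1, squares for replicate 2 and triangles for replicate 3, and the mean ± SD (n = 3) in black beside each strain. The age-1; rde-4 libraries are the lowest for genes with nothing opposite (3.13% to 3.58%) and the highest at the rDNA loci (6.61% to 13.9%).

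Gene by gene, few loci differed beyond the spread of the populations. Of the 3581 genes with enough counts to test, 31 (0.866%) passed an adjusted p of 0.05 in edgeR (quasi-likelihood F test), 19 higher in age-1; rde-4 than in rde-4 (0.531%) and 12 lower (0.335%). Libraries of the same replicate number deviated together only weakly (correlations of 0.103 to 0.308). With the replicate number as a block 181 genes passed (5.05%), 105 higher (2.93%) and 76 lower (2.12%), among them all 31 of the unblocked fit with the same sign. At an unadjusted p below 0.05 the unblocked fit had 248 higher (6.93%) and 291 lower genes (8.13%), and DESeq2 called 71 higher (2.89%) and 9 lower (0.366%) of 2461, or 3.25%. The number of calls depended on single libraries: it was 8 without rde-4 replicate 1, 10 without rde-4 replicate 2, 40 without rde-4 replicate 3, 49 without age-1; rde-4 replicate 1, 25 without its replicate 2 and 9 without its replicate 3.

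These calls describe each gene relative to the bulk of the genes. TMM, the scaling that edgeR uses, set the typical gene to no change (median log2 fold change -0.04) by giving the rde-4 libraries factors of 1.29 to 1.45 and the double mutant libraries factors of 0.63 to 0.84. When the counts were scaled by library totals, the median moved to -0.87, with 12 genes higher and 977 lower (27.3%, 27.6% in all), and when they were scaled by the counts opposite miRNA genes it was -0.73, with 12 higher and 497 lower (13.9%, 14.2% in all). With the block, these became 17 higher (0.475%) and 1401 lower (39.1%, 39.6% in all) for totals, and 21 higher (0.586%) and 1003 lower (28%, 28.6% in all) for the miRNA-opposite scale. For comparison, the libraries of the strains did not overlap in CPM for 351 genes higher in the double mutant (9.8%) and 447 lower (12.5%). The direction of a gene whose TMM value lies between about 0 and 0.87 therefore turned with the scale, whereas the 12 loci that stayed higher under library totals were C32D5.8, 7 of the snRNA-opposite loci and the 4 rDNA loci.

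**Figure D2:**
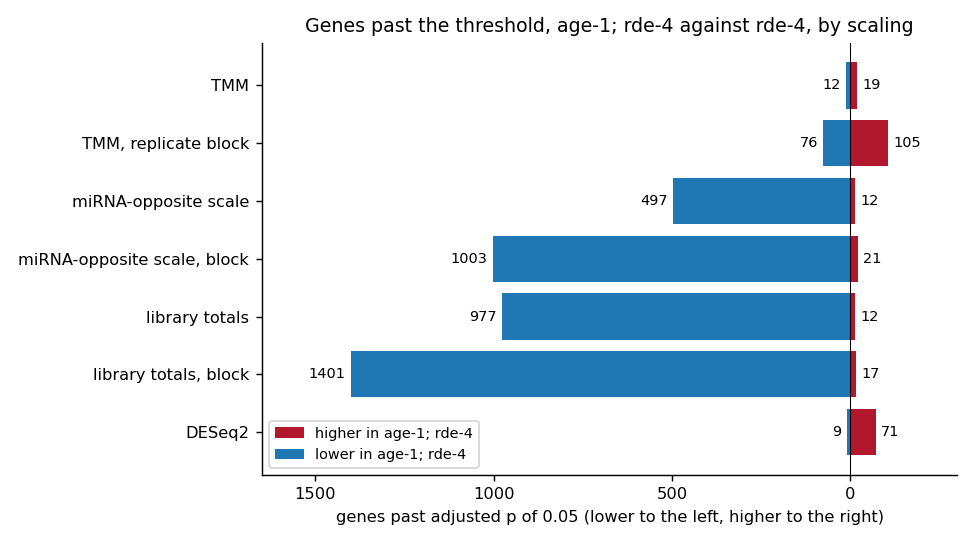
Number of genes past an adjusted p of 0.05 in age-1; rde-4 against rde-4 (x axis, genes lower to the left and higher to the right) for 7 ways of scaling and testing. With TMM there were 12 lower and 19 higher genes, with library totals 977 and 12.

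The locus with the most complete loss was linc-18, a long intervening non-coding RNA on chromosome I (12215538-12216323). It had 313 antisense counts over the rde-4 libraries, at 33.8, 34.2 and 21.4 CPM (counts scaled to library size) in replicates 1 to 3, and 0, 0 and 0 counts in age-1; rde-4. The WT libraries had 20, 39 and 28 and the age-1 libraries 63, 52 and 70, so that linc-18 was present in 3 strains and absent from all libraries of the double mutant. With the double mutant set to a floor of 3 counts over its libraries, the level on the TMM scale was at least 67.5-fold lower (adjusted p = 2.7e-05). The end of linc-18 overlaps the protein-coding gene sdz-14 on the other strand, which had 13, 10 and 5 counts antisense to itself in rde-4 and 4, 6 and 2 in the double mutant and was not tested. The loss of linc-18 counts passed in each of the 16 other fits in which it was tested, every left-out library included. Leaving out single libraries, the fitted log2 fold change lay between -9.53 and -9.15.

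Most other falls were of loci that stood highest in rde-4. Antisense counts at rpr-1, the gene of the RNA component of ribonuclease P (chromosome I, 13463955-13464207), were 26, 26 and 28 in rde-4 and 1, 2 and 3 in the double mutant. WT had 1, 6 and 3 and age-1 had 5, 5 and 10, so the 3 rde-4 libraries lay above the 9 others. Its log2 fold change was -3.05 ± 0.54 (SE, adjusted p = 0.0094). Counts at Y23H5A.2, a protein-coding gene that lies opposite the cysteinyl-tRNA synthetase gene cars-1 (chromosome I, 2621957-2623186), were 207, 247 and 514 in rde-4 and 40, 26 and 30 in age-1; rde-4. The WT libraries (37, 63 and 105) and the age-1 libraries (30, 24 and 91) were near the double mutant, and the fall was 2.70 ± 0.47 (log2, SE, adjusted p = 0.0094). Since the counts are also sense reads of cars-1 where the genes overlap, they cannot be given to either gene alone.

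T03D3.5 (chromosome V, 2823806-2826835), with nothing annotated opposite, had 43, 41 and 79 counts in rde-4 and 6, 4 and 5 in the double mutant, with 13, 14 and 20 in WT and 7, 12 and 12 in age-1. It stood high in rde-4 only and fell by 2.80 ± 0.50 (log2, SE, adjusted p = 0.0094). K10G9.2 (chromosome III, 10285923-10288621) had 214, 230 and 282 counts in rde-4 and 46, 55 and 28 in the double mutant, against 32, 36 and 36 in WT and 11, 43 and 67 in age-1 (log2 fold change -1.87 ± 0.41, adjusted p = 0.03). On the scale of the 12-library fit K10G9.2 was not high in rde-4 alone. The double mutant, at 33.4, 31.7 and 17.1 CPM, lay above every WT and age-1 library (3.24 to 12.7 CPM). T03D3.5 and K10G9.2 were the 2 falls that the naming rule took from genes with nothing opposite. When each library was left out in turn, K10G9.2 passed in 1 of 6 fits, T03D3.5 and Y23H5A.2 in 5 of 6 and rpr-1 in 4 of 6. The rule asked for at least 10 CPM, and rpr-1 (7.71 CPM in rde-4) was named after its values were seen.

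The remaining 7 falls were below 10 CPM in both strains and were also named after their values were seen. Y71H2AL.2, which lies opposite pbo-1, had 21, 10 and 11 counts in rde-4 against 1, 0 and 0 in the double mutant, a counting ratio of 27.2 (exact binomial 95% interval 4.61 to 1100) and 0 to 2 counts in each WT and age-1 library. lido-13 had 33, 30 and 38 against 0, 5 and 4. B0261.8 had 29, 52 and 15 against 0, 2 and 2. Like linc-18, B0261.8 was lowest in the double mutant, with 12, 20 and 32 in WT and 19, 20 and 13 in age-1. The same held for kin-19, the casein kinase 1 alpha of Wnt signaling, with 26, 18 and 24 counts in rde-4 and 2, 3 and 3 in age-1; rde-4, beside 16, 28 and 35 in WT and 21, 24 and 42 in age-1. kin-19 fell by 2.42 ± 0.52 (log2, SE, adjusted p = 0.026), but it passed in none of the 6 fits that left out a library. klf-1, a Krüppel-like zinc finger factor, C53D5.5 and Y48B6A.10 had 15 to 36 counts per library in rde-4 and 1 to 5 in the double mutant.

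Counted over the 12 libraries on 1 scale, 9 of the 12 fallen loci had all 3 rde-4 libraries above the 9 others, and 3 (linc-18, B0261.8 and kin-19) had all 3 double mutant libraries below the 9 others. Among the 3571 genes tested both here and in the fit of all 12 libraries, 125 (3.5%) had the first pattern and 16 (0.448%) the second. These patterns were chosen after the counts were seen, and part of each (rde-4 above the double mutant) is what the call itself required. With the block, 34 of the 76 lower genes had the rde-4 libraries above all others.

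**Figure D3:**
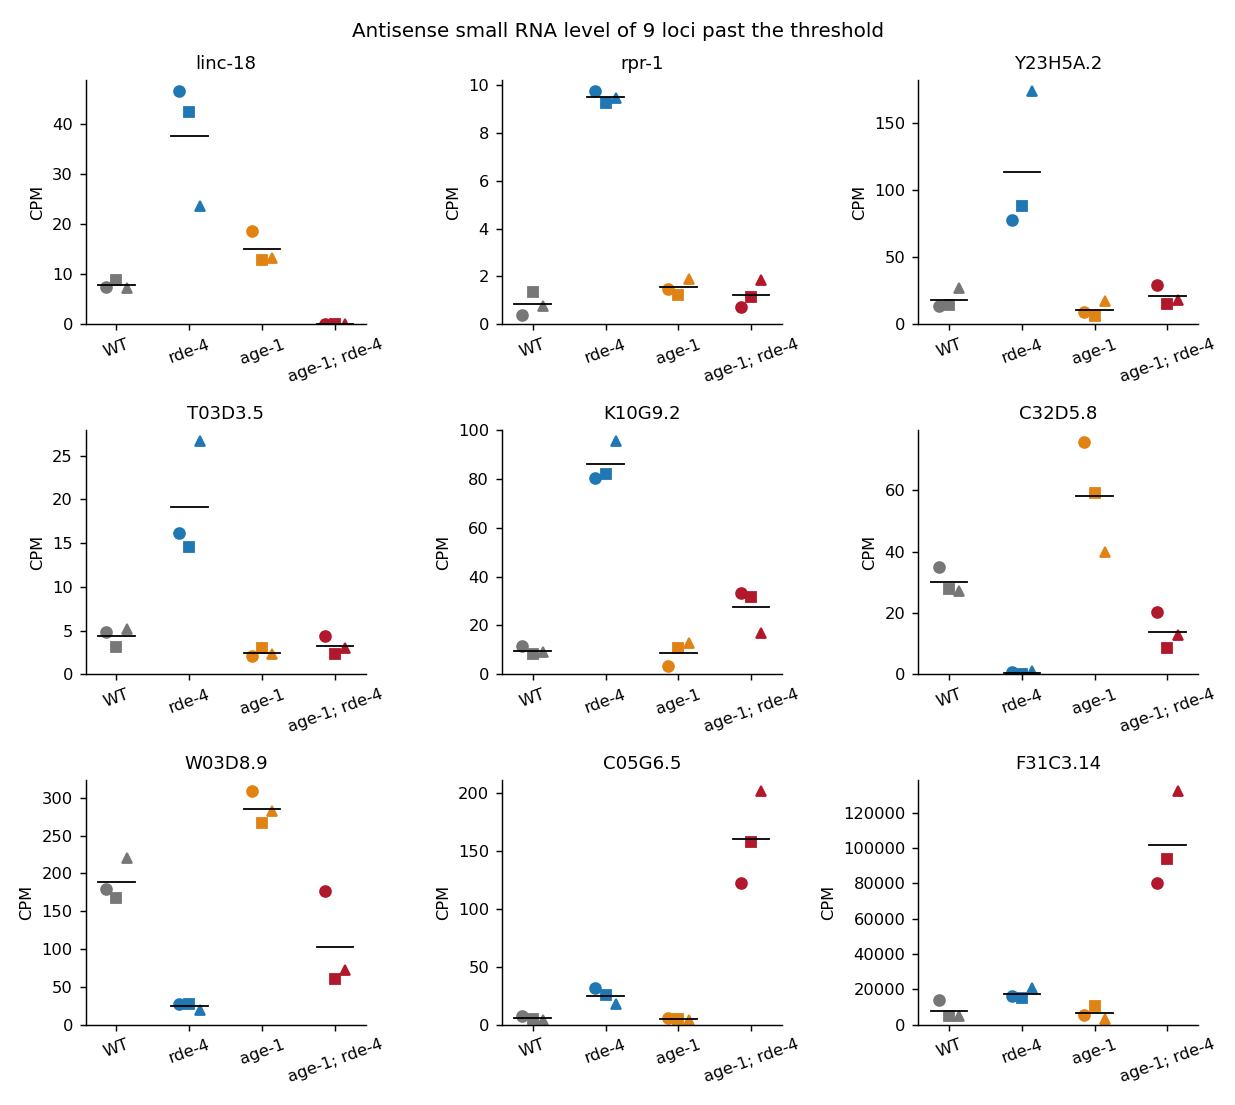
Antisense level (y axis, CPM on the TMM scale of the 12-library fit, starting at 0) of 9 loci past the threshold, with symbols for replicates 1 (circle), 2 (square) and 3 (triangle) and a black line at the mean of each strain (n = 3). linc-18 is at 0 in the 3 age-1; rde-4 libraries, rpr-1, Y23H5A.2, T03D3.5 and K10G9.2 are highest in rde-4, C32D5.8 and W03D8.9 are low in rde-4, and C05G6.5 and F31C3.14 are highest in the double mutant.

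The rise with the largest log2 fold change was at C32D5.8, a locus that was nearly empty in rde-4 and held more counts in age-1; rde-4. At 9.76 CPM in the double mutant it was just below the rule's 10 CPM and was named after its values were seen. This protein-coding gene (chromosome II, 6343058-6345922) had 95 to 122 counts in the WT libraries and 2, 0 and 3 in rde-4. The age-1 libraries had 257, 238 and 209 and the double mutant libraries 28, 15 and 21. The double mutant thus lay above all rde-4 libraries and below all WT libraries, with a log2 fold change over rde-4 of 4.21 ± 0.65 (SE, adjusted p = 0.0057). It passed in all 6 fits that left out a library (3.68 to 4.96), and under library totals it was 3.38. The effect of age-1 with RDE-4 present was smaller, at 0.82 ± 0.32 (adjusted p = 0.084), and the difference between the effects was 3.49 ± 0.76 (adjusted p = 0.056, and 0.012 with the replicate block). The non-coding gene C32D5.18 lies inside C32D5.8 on the other strand, with 0, 0 and 1 counts in rde-4 and 8, 4 and 6 in the double mutant.

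W03D8.9 (chromosome I, 2784620-2786077), with nothing opposite, followed the same order of strains in raw counts. It had 485, 735 and 846 counts in WT and 1047, 1070 and 1484 in age-1, but 72, 75 and 55 in rde-4. In CPM, replicates 1 to 3 stood at 19.7, 21.5 and 16.8 in rde-4 and at 122.0, 42.8 and 51.2 in age-1; rde-4. The double mutant lay above all rde-4 libraries and, in counts, below all WT libraries, and replicate 1 was its highest library. The log2 fold change over rde-4 was 1.89 ± 0.44 (SE, adjusted p = 0.048), near the threshold, and it passed in 1 of 6 fits with a library left out. The age-1 effect with RDE-4 present was 0.48 ± 0.34 (adjusted p = 0.29), and the 2 effects did not differ beyond their error (difference 1.49 ± 0.60, adjusted p = 0.49).

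The other 17 rises were at structural RNA genes. F31C3.14, which lies opposite the 26S rRNA gene rrn-3.1 (chromosome I, 15067668-15068355), had 43556, 42817 and 61583 counts in rde-4 and 110336, 162433 and 215935 in the double mutant. The log2 fold change was 2.33 ± 0.40 (SE, adjusted p = 0.0094). F31C3.13 and F31C3.15, both opposite the 18S rRNA gene rrn-1.1, rose by 2.23 and 2.31, and F31C3.16, opposite an annotated rRNA pseudogene, by 2.08. These 4 loci sit in repeated DNA whose copies share reads. With RDE-4 present none of them passed between age-1 and WT (-0.42 to 0.28). The remaining one, rrn-4.2, is itself a 5S rRNA gene, on chromosome V, and rose from 924, 916 and 978 counts to 1181, 2425 and 2231 (1.65 ± 0.38, adjusted p = 0.048), and under library totals its value was 0.85. Its near copies rrn-4.3 and rrn-4.4, named after their values were seen, were at 1.44 and 1.57 (adjusted p = 0.09 and 0.071) and passed with the block (adjusted p = 0.01 and 0.003).

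The 12 rises opposite snRNA genes, which encode the RNAs of the spliceosome, came from 35 such loci tested, where 0.531% of all tested genes rose, and with the block 18 of them passed, where 2.93% of all did. C05G6.5 (chromosome IV, 624064-624270) had 83, 71 and 52 counts in rde-4 and 168, 272 and 329 in age-1; rde-4. WT had 19, 21 and 15 and age-1 20, 19 and 20, so both strains without RDE-4 stood above both strains with it. The log2 fold change was 2.52 ± 0.40 (SE, adjusted p = 0.0068), and it passed in all 6 fits that left out a library. C15F1.14, opposite an snRNA gene annotated as sup-39 and the miRNA gene mir-1831, rose from 228, 332 and 132 counts to 403, 1070 and 1036 (2.46 ± 0.45, adjusted p = 0.01). The other 10 ranged from 1.66 (Y57G11C.1140) to 2.07 (Y54G9A.14). They are not 12 independent observations: 4 of them lie opposite snRNA genes that the annotation gives the same name (C47F8.9, carried by 7 genes), and a read was counted at up to 50 places.

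Of the 19 higher loci, 17 had all 3 double mutant libraries above the 9 others, against 206 of 3571 tested genes (5.77%), and 13 had both rde-4 strains above both others, against 365 (10.2%). As for the falls, these patterns were chosen after the counts were seen. Part of the first (the double mutant above rde-4) is what the call itself required, and many of these loci share reads. W03D8.9 and rrn-4.2 were the only rises among genes with nothing opposite in the unblocked edgeR fit. With the block, 40 of the 2293 tested genes of this class rose, beside 2.93% of all tested genes. DESeq2 called 15 of 1504 higher, beside 2.89% of all.

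Sperm genes were listed because ALG-3 and ALG-4 carry RDE-4-dependent siRNAs in spermatogenesis. None of the sperm lists had a member past the threshold in the unblocked fit. Of the 35 major sperm protein (MSP) genes, which encode the sperm cytoskeletal protein that also signals to oocytes, 9 could be tested, and their median log2 fold change was -0.08 beside -0.04 over all genes. The 9 tested members of the sperm-specific P and Q families (17 genes) had a median of 0.60, and 16 of 43 spermatogenesis genes had 0.26, with 14 of 16 above 0 (1718 of 3581 over all genes). With RDE-4 present, age-1 against WT gave medians of 0.73, 0.68 and 0.91 for these lists (all genes -0.17), over the 31, 15 and 32 members that could be tested there. All 3 medians without RDE-4 were negative with library totals as the scale (-0.94, -0.27 and -0.58) and on the miRNA-opposite scale (-0.79, -0.14 and -0.45).

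As a share of all counts, the MSP family took 0.0112%, 0.00972% and 0.00857% in rde-4 and 0.00821%, 0.0043% and 0.00321% in the double mutant, below rde-4 in all libraries (ratio 0.533, exact p = 0.1), whereas age-1 over WT was 1.68 with overlap (exact p = 0.2). The spermatogenesis list took 0.0184% ± 0.00232 in rde-4 and 0.013% ± 0.000924 in the double mutant (ratio 0.704, exact p = 0.1, with overlap for both lists when taken over the miRNA-opposite counts), against 0.0513% ± 0.0172 in WT and 0.103% ± 0.00796 in age-1. The P and Q families overlapped between the strains (ratio 0.807, exact p = 0.3), and the MSP-domain genes had a ratio of 1.04 (exact p = 0.8). Genes with nothing opposite had a ratio of 0.626.

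With the replicate block, 2 of the 16 tested spermatogenesis genes and 1 of 3 MSP-domain genes rose, beside 2.93% of all tested genes, and none of the tested MSP, P and Q genes. spe-8, a tyrosine kinase that activates sperm, had 11, 12 and 13 counts in rde-4 and 33, 14 and 16 in the double mutant (log2 1.46 ± 0.47 without and 1.37 with the block, adjusted p = 0.15 and 0.043). Its levels were much higher with RDE-4, at 68, 167 and 156 in WT and 272, 317 and 348 in age-1. spe-29, a small membrane protein of sperm activation, had 39, 33 and 29 against 59, 47 and 54 (1.31 ± 0.39, adjusted p = 0.13, and 0.028 with the block). It lies opposite gon-1, and WT had 5, 25 and 22.

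C25D7.1 (melo-3), which encodes a protein with an MSP domain, had 48, 105 and 83 counts in WT, 16, 15 and 9 in rde-4, 184, 258 and 148 in age-1 and 26, 21 and 18 in age-1; rde-4. The double mutant lay above rde-4 in every library, and the log2 fold change was 1.34 ± 0.43 (SE, adjusted p = 0.15, and 0.04 with the block). The age-1 effect with RDE-4 was 1.06 ± 0.34 (adjusted p = 0.053), and the difference of the 2 effects was 0.33 ± 0.57 (adjusted p = 0.91). dct-9, with 15, 24 and 11 counts against 22, 12 and 18, and ssp-16, with 41, 48 and 25 against 88, 24 and 23, overlapped between the strains (0.71 ± 0.45 and 0.95 ± 0.52, adjusted p = 0.46 and 0.40). These 3 MSP-domain genes are ones the study singled out from these strains, so their direction is not independent evidence. Under library totals C25D7.1 was 0.48, dct-9 -0.17 and ssp-16 0.00.

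The genes of the Argonautes themselves had few antisense counts. alg-3 had 23, 19 and 16 counts in rde-4 and 17, 9 and 6 in the double mutant, and alg-4 had 23, 11 and 23 against 11, 10 and 6 (log2 -0.19 ± 0.48 and -0.44 ± 0.48, adjusted p = 0.86 and 0.66). With RDE-4 they stood at 46, 78 and 55 (alg-3) and 51, 71 and 45 (alg-4) in WT and at 112, 143 and 87 and 128, 170 and 123 in age-1. The 12 tested of 23 Argonaute genes had a median of -0.34, with none past the threshold and 11 of 12 below 0. Of all 3581 tested genes, 1863 were below 0. Among them wago-4, a germline Argonaute of secondary siRNAs, had 58, 84 and 84 counts in rde-4 and 26, 25 and 29 in the double mutant, without overlap (-0.87 ± 0.39, adjusted p = 0.30). ergo-1 had 9, 9 and 10 counts against 2, 4 and 6 and was not tested.

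Known targets of ERGO-1 were nearly empty in both strains. The 10 genes together had 2214, 1436 and 2620 counts in WT, but 55, 49 and 70 in rde-4 and 17, 32 and 10 in age-1; rde-4. As a share of all counts, the double mutant had 0.295 times the rde-4 level, without overlap (exact p = 0.1), where genes with nothing opposite had 0.626. Only 2 could be tested, and these held most of the list's counts in every rde-4 library, so the ratio rests largely on them. C18D4.6 had 29, 24 and 20 counts against 1, 9 and 5 (log2 -1.65 ± 0.52, adjusted p = 0.15, and 0.027 with the block), and E01G4.7 had 13, 10 and 16 against 5, 7 and 2 (-0.84 ± 0.52, adjusted p = 0.44). Of 44 genes of the RNAi machinery 22 were tested, with a median of -0.41 and none past the threshold. The block added 2 falls among these 22 genes, beside 2.12% of all tested genes. One was nyn-1 (15, 19 and 49 counts against 4, 5 and 4, adjusted p = 0.11 without and 0.0099 with it), which encodes a NYN-domain nuclease of the mutator pathway. The other was xrn-2, the nuclear exonuclease that degrades small RNAs (81, 78 and 77 against 15, 17 and 33, adjusted p = 0.15 and 0.036).

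Genes of IIS and of the DAF-16 response gave little antisense signal. Of 52 IIS genes 6 were tested (median -0.54, none past the threshold with or without the block). daf-16 had 9, 16 and 10 counts in rde-4 and 4, 6 and 9 in the double mutant, and the ephrin receptor gene vab-1, whose protein binds MSP, had 5, 6 and 4 against 2, 4 and 2. Both genes were below the filter. Of 42 DAF-16 targets and stress genes 4 were tested (median 0.45, and -0.38 under library totals). sip-1, a small heat shock protein, had 11, 40 and 19 counts against 26, 42 and 55, higher in each pair of the same number though overlapping as groups in raw counts (1.42 ± 0.47, adjusted p = 0.15, and 0.011 with the block). With RDE-4 present, sip-1 rose by 2.24 ± 0.36 in age-1 (97, 159 and 178 counts against 11, 32 and 32 in WT, adjusted p = 0.015). It overlaps F43D9.8 on the other strand, which rose with it under the block (1.86, adjusted p = 0.015). lea-1, a late embryogenesis abundant protein linked to desiccation, had 5, 10 and 11 counts against 9, 11 and 12 here (0.91 ± 0.47, adjusted p = 0.38), and 36, 46 and 56 in age-1 against 3, 8 and 10 in WT (2.39 ± 0.42, adjusted p = 0.022).

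Lists that stand for other tissues and gene families had no gene past the threshold in the unblocked fit apart from linc-18. Oocyte and hermaphrodite germline genes (17 of 39 tested) had a median of -0.48 with 15 of 17 below 0 (1863 of 3581 over all genes), and the same list had -0.82 between age-1 and WT. Among them glh-2, a germ granule helicase, had 19, 16 and 11 counts in rde-4 and 5, 4 and 7 in the double mutant (-0.87 ± 0.48, adjusted p = 0.40). The 39 tested of 80 cytosolic ribosomal protein genes had a median of -0.29 (0.07 between age-1 and WT), 28 of 390 F-box genes -0.20, 14 of 114 BTB and MATH genes -0.32, 7 of 81 histone genes -0.21, 14 of 1626 chemoreceptor genes -0.02, 14 of 263 C-type lectins 0.13, 7 of 89 nematode-specific peptide genes 0.30, 12 of 170 lincRNAs -0.16 and 5 of 179 collagen genes 0.46. Under library totals the medians of the lectins (-0.70), the nematode-specific peptides (-0.56) and the collagens (-0.33) were negative too. Body wall muscle genes (5 of 18) had -0.10 and neuronal genes (2 of 15) -0.77, and of the intestinal and vitellogenin genes none of 17 could be tested. With the block 3 F-box genes, fbxa-117, fbxa-107 and fbxa-184, and the neuronal gene unc-31 fell, of 28 and 2 tested, beside 2.12% of all tested genes. No list of tissue markers stood at 0 in either strain, and antisense reads do not measure how much messenger RNA of a tissue was present.

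**Figure D4:**
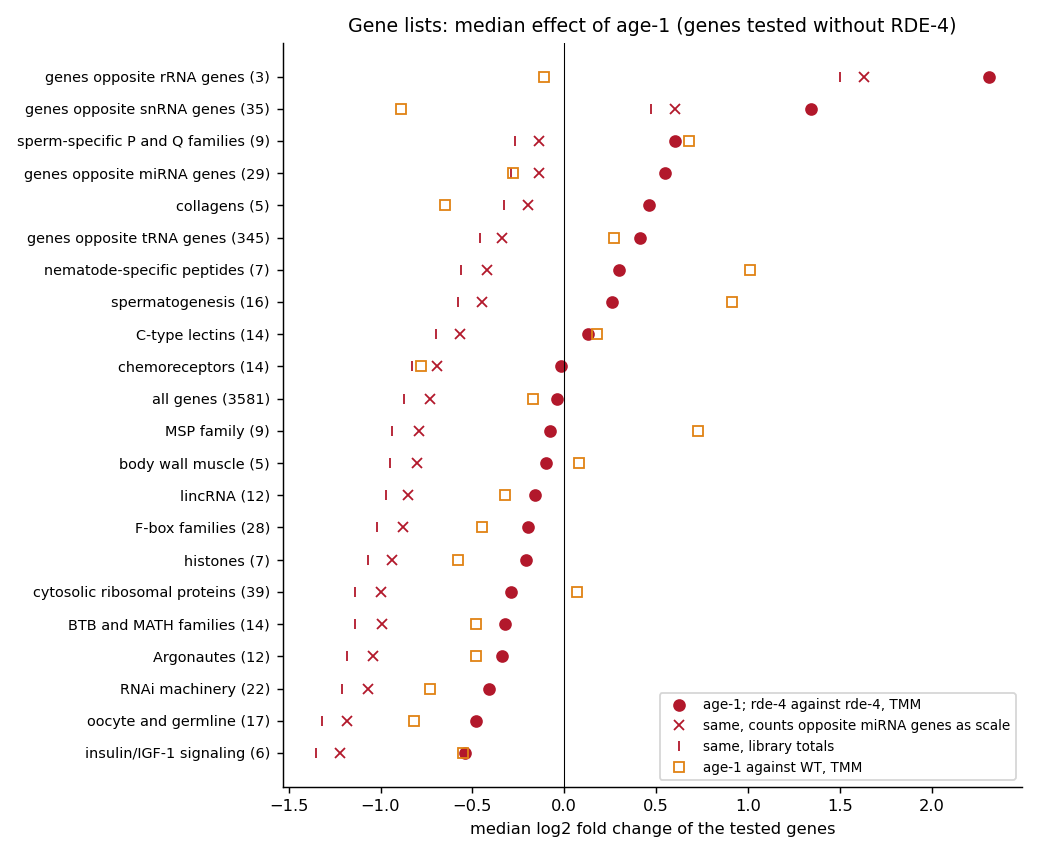
Median log2 fold change of the tested genes of each list (x axis) for age-1; rde-4 against rde-4 with 3 scalings (red) and for age-1 against WT (orange squares, over the members tested there), with the number of genes tested without RDE-4 in brackets. Only the rRNA-opposite (2.31) and snRNA-opposite loci (1.34) stay above 0 on all 3 scales.

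Of the 5 loci with the most counts, the rDNA loci F31C3.14 and F31C3.16 rose, as given with the structural RNA loci, and the other 3 lie opposite miRNA genes. T09B4.14, opposite mir-1, had 721639, 503458 and 861482 counts in rde-4 and 668150, 657616 and 779234 in the double mutant, and K01F9.6, opposite mir-80, had 643886, 535882 and 529209 against 654741, 551685 and 579116. On the TMM scale they were 0.64 ± 0.38 and 0.71 ± 0.37 higher (adjusted p = 0.43 and 0.38), and under library totals -0.19 and -0.15. F16A11.6, opposite mir-71, a microRNA tied to lifespan in worms, had 348954, 374047 and 323008 against 455995, 502741 and 340449. Its value was 0.95 ± 0.37 (adjusted p = 0.22, and 0.0067 with the block) on the TMM scale and 0.10 under library totals. Across the 29 tested loci opposite miRNA genes the median was 0.55, and it was -0.29 under library totals. The 345 tested loci opposite tRNA genes had a median of 0.41 (-0.46 under library totals). None of them passed without the block and 27 rose with it (2.93% of all tested genes did), at 1.10 to 1.40, many of them copies with nearly equal values.

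How far the age-1 effect without RDE-4 resembled that with RDE-4 could be read from comparisons that share no library. Age-1 against WT had 383 genes higher and 164 lower of 5000 (7.66% and 3.28%, 10.9% in all), and this count ranged from 9 without age-1 replicate 2 to 1924 genes without age-1 replicate 3, with 11 without age-1 replicate 1 and 34, 231 and 96 without WT replicates 1, 2 and 3. Of the 3253 genes tested in both backgrounds, 368 passed in age-1 against WT and 26 in age-1; rde-4 against rde-4, and 0 passed in both. With library totals as the scale, age-1 against WT had 137 higher (2.74%) and 33 lower genes (0.66%, 3.4% in all), and 475 (9.5%) and 130 (2.6%, 12.1% in all) with the block. On the miRNA-opposite scale there were 548 (11%) and 42 (0.84%, 11.8% in all), and with the block 1268 (25.4%) and 206 (4.12%, 29.5% in all). DESeq2 called 875 (30.2%) and 100 (3.45%, 33.6% in all) of 2901. With the block, age-1 against WT had 1085 higher (21.7%) and 873 lower genes (17.5%, 39.2% in all). Among the 3253 genes tested in both, 1409 and 163 passed with the block. Of these, 91 passed in both (55.8% of the shorter and 6.46% of the longer list), 76 of them in the same direction. The shares to set beside these are those over all tested genes, 39.2% in age-1 against WT and 5.05% in age-1; rde-4 against rde-4. Across the 3253 genes the 2 sets of log2 fold changes of the unblocked fits had a Pearson correlation of 0.524 and a Spearman correlation of 0.565. The points are genes counted in the same libraries and share their width and base composition between the backgrounds, so no p is given.

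The genes that rose in age-1 with RDE-4 present were followed into the background without it. Of the 383, 231 had enough counts to be tested in the absence of RDE-4 and 152 did not. The 231 had a median log2 fold change of 1.29 in age-1 against WT and 0.60 in age-1; rde-4 against rde-4, where none passed. The first median was chosen high by its own call, so the gap between the medians is not a result. In the fit of all 12 libraries, none of the 383 higher or the 164 lower genes passed the test of the difference between the age-1 effects. Only 0.154% of all tested genes did. With the block, 1085 genes were higher in age-1, and the difference was higher without RDE-4 for 1 and lower for 3. Of the 873 lower genes it was higher for 15 and lower for 0. Over all tested genes these blocked shares were 0.342% higher and 0.0685% lower. With the block, 36 of the 672 tested genes higher in age-1 also rose without RDE-4 and 1 fell. Of the 737 lower in age-1, 40 fell and 14 rose. Over all genes tested without RDE-4, 2.93% rose and 2.12% fell with the block.

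Single loci with an age-1 effect are given next, and were chosen after their values were seen. Counts at ahcy-1, which encodes S-adenosylhomocysteine hydrolase, were 10, 18 and 13 in WT and 142, 199 and 153 in age-1, but 38, 13 and 22 in rde-4 and 29, 33 and 18 in the double mutant. The age-1 effect was 3.28 ± 0.36 with RDE-4 (adjusted p = 0.0007) and 0.77 ± 0.45 without it (adjusted p = 0.42), a difference of -2.46 ± 0.61 (adjusted p = 0.12, and 0.033 with the block). spe-4, an aspartyl protease of sperm organelles, had 14, 40 and 21 counts in WT and 105, 126 and 75 in age-1, against 9, 4 and 5 in rde-4 and 4, 2 and 2 in the double mutant. It was below the filter of the 6-library fit, and over all 12 libraries the difference of the age-1 effects was -2.26 ± 0.77 (adjusted p = 0.42). W01C9.2 (chromosome II, 8536360-8538652) had 0, 0 and 0 counts in WT and 0, 2 and 0 in rde-4, but 16, 12 and 25 in age-1 and 4, 15 and 16 in age-1; rde-4, so its small RNAs appeared with age-1 in both backgrounds. It was below the filter of the 6-library fit, and in the fit of all 12 libraries it was 4.71 ± 0.86 higher in the double mutant than in rde-4 (log2, SE, adjusted p = 0.014). That fit called 32 genes, 24 of them shared with the 6-library fit, and pqn-73 (chromosome II, 8540715-8545393) was another of its added rises (0, 1 and 1 counts against 4, 14 and 10, adjusted p = 0.021), though WT also had 1, 16 and 3.

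**Figure D5:**
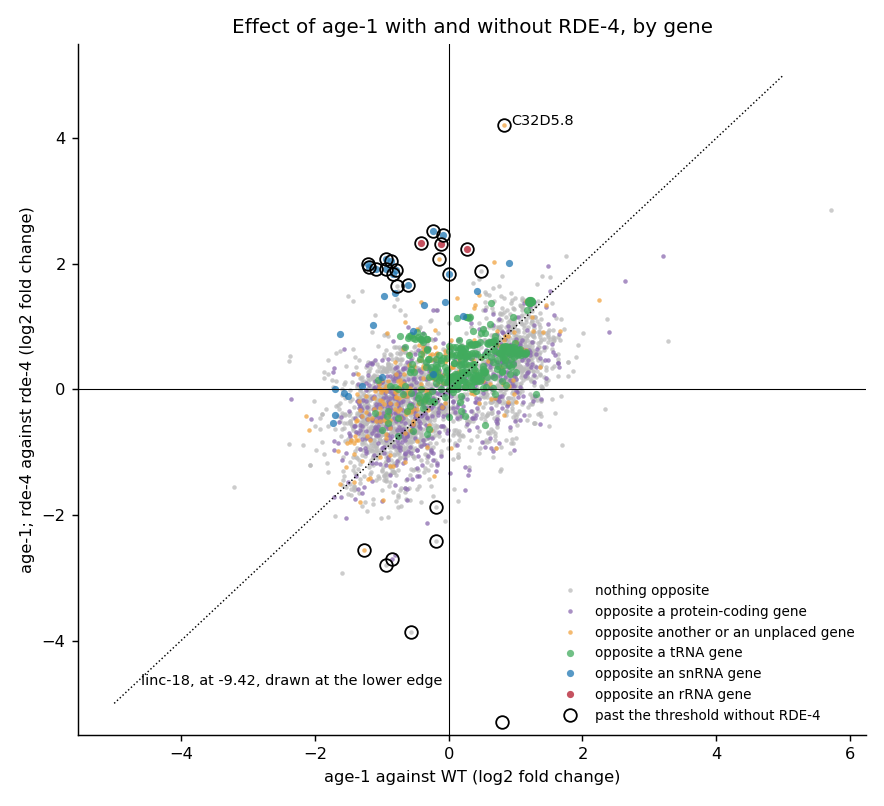
Log2 fold change of age-1 against WT (x axis) and of age-1; rde-4 against rde-4 (y axis) for the 3253 genes tested in both, colored by what lies on the opposite strand, with black rings around the 26 genes past the threshold without RDE-4 and a dotted line of equal effects. The ringed snRNA- and rRNA-opposite loci lie above 0 on the y axis and near or below 0 on the x axis, and linc-18 (-9.42) is drawn at the lower edge.

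The difference between the 2 age-1 effects, tested as the interaction over all 12 libraries, passed for 9 of 5843 genes (0.154%), 8 with a higher (0.137%) and 1 with a lower effect without RDE-4 (0.0171%). At an unadjusted p below 0.05 there were 309 (5.29%) and 207 (3.54%), with the block 20 (0.342%) and 4 genes (0.0685%, 0.411% in all) passed, and DESeq2 called 19 (0.738%) and 8 (0.311%, 1.05% in all) of 2573. The direction turned with the scale: library totals gave 2 higher (0.0342%) and 62 lower (1.06%, 1.1% in all), and the miRNA-opposite scale 2 and 71 (1.22%, 1.25% in all). With the block there were 9 and 309 (5.29%, 5.44% in all) for totals, and 9 and 401 (6.86%, 7.02% in all) for the miRNA-opposite scale. The lower one was linc-18, whose antisense counts were higher in age-1 than in WT in every library (0.79 ± 0.33, adjusted p = 0.10) and gone in the double mutant. Of the 8 higher ones, 7 lie opposite snRNA genes. At W07G1.17, the largest of them, counts were 211, 166 and 207 in rde-4 and 353, 549 and 618 in the double mutant, but 98, 53 and 91 in WT and 48, 47 and 42 in age-1, a difference of 3.27 ± 0.61 (log2, SE, adjusted p = 0.029).

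The eighth was Y110A2AL.1 (chromosome II, 2875101-2876768), with 0, 0 and 0 counts in rde-4 and 6, 9 and 8 in age-1; rde-4. On the TMM scale of the 6 libraries it was at least 11.9-fold higher, with rde-4 set to a floor of 3 counts over its libraries. The bound is smaller under library totals, which were larger in the double mutant. WT had 16, 9 and 21 and age-1 13, 2 and 16, so rde-4 alone lacked it. The difference over all 12 libraries had an adjusted p of 0.029. When any 1 of the 12 libraries was left out, 1 to 3 genes passed in place of 9.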

How the data were processed

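The authors mapped small RNA reads of whole worms to the C. elegans genome (WBcel235, WS283, annotated by RefSeq) using QuasR and Bowtie, keeping reads with up to 50 hits, and deposited raw counts of reads antisense to each gene. No source used here gives their versions. The rde-4 and age-1; rde-4 columns stand in different tables and were joined by gene name. The 6 columns that the tables repeat held 0 differing values, 0 entries named no gene and 0 per-sample columns were left out. Exact intervals and floors (95%, 3 counts) cover counting error only.

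Of 32238 genes, 31418 matched the RefSeq gene table and 30966 were placed in Ensembl release 115 of that build, from which exons on the opposite strand were read. 22865 genes had none and 1272 were not placed. Near-identical copies share reads.

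The two-sided quasi-likelihood F test of edgeR 4.0.16 (R 4.3.3) was applied to the counts with TMM factors, the filterByExpr minimum, Benjamini-Hochberg adjustment over all tested genes and a threshold of 0.05, on 6 libraries per strain pair and on all 12 for the difference of effects, which used the interaction term. Adjusted p-values are from edgeR unless DESeq2 1.42.0 is named. SEs come from the F statistic. CPM are on the TMM scale. Shares were compared by exact permutation tests (scipy 1.17.1). Total depth was 2449703 to 3590005 counts per library.

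The labels number replicates 1 to 3 in each strain. Deviations from the strain means of same-numbered rde-4 and age-1; rde-4 libraries correlated at 0.308, 0.103 and 0.139 over 3581 genes, all above 0.1. Libraries of different numbers correlated at -0.231 to 0.0708. Blocked values are therefore given where they change a call. No source says what a number shares.

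Named genes were the largest changes past the threshold with at least 10 CPM and no overlap, up to 3 per list, the largest differences of the age-1 effects, the 5 with most counts and a fixed set. Genes outside this rule were chosen after their values were seen. The members and lists were chosen with earlier results of these data known. Alternatives were other scalings, filters and tools, the block, all 12 libraries in 1 fit, only genes with nothing opposite, and leaving out each library. The block combined with another scaling or with that gene set, and the share without C44B7.11, were added after seeing the data. No sequences were used here.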

Additional observations from a re-analysis of the deposited data

Results flagged for a closer look

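The age-1 effect without RDE-4 differed from that with RDE-4, by the interaction test in edgeR over 12 libraries, at 9 loci. The difference (log2, effect without minus effect with RDE-4) was -10.76 for linc-18, a fitted value that depends on how 0 counts are handled and is no bound, and 7.73 for Y110A2AL.1, of the same kind. It was 3.27 for W07G1.17, 3.22 for Y47H9A.5, 3.09 for R05D7.8, 3.09 for Y54G9A.14, 2.97 for F15H9.9, 2.93 for F08G2.17 and 2.81 for C05G6.5, all opposite snRNA genes and in part sharing reads. Groups of 3 libraries were too small for a search for single outlying samples.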

How the results depend on the processing

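With the main settings 31 genes passed in age-1; rde-4 against rde-4 (19 higher, 12 lower), 547 in age-1 against WT and 9 for the difference of the age-1 effects. For age-1; rde-4 against rde-4 the counts were 989 with library totals (12 higher, 977 lower), 509 with the miRNA-opposite scale (12 and 497), 80 with DESeq2 (71 higher), 69 with no filter on low counts (36 and 33) and 7 with only genes with nothing opposite (2 and 5). With the replicate block they were 181 (105 and 76), 1418 under totals (1401 lower), 1024 under the miRNA-opposite scale (1003 lower) and 58 with nothing opposite (38 and 20). A filter of at least 10 CPM in 3 libraries gave 23 lower and the fit of all 12 libraries 7 lower. Leaving out 1 library gave 8 to 49 (4 to 36 higher, 3 to 16 lower). For age-1 against WT the counts were 170 with totals, 975 with DESeq2, 930 with no filter, 313 at 10 CPM and 863 with nothing opposite, and with the block 1958, 1474 on the miRNA-opposite scale and 1546 with nothing opposite, with 9 to 1924 when a library was left out. For the difference they were 64 with totals, 73 with the miRNA-opposite scale, 27 with DESeq2, 1 with RLE size factors, 1 with nothing opposite, and with the block 24, 318 under totals and 410 on the miRNA-opposite scale, with 1 to 3 when a library was left out. Why the counts differ was not tested, apart from the scalings, which move the median. The share on genes with nothing opposite was 0.626 times that in rde-4 and 0.69 times relative to the counts opposite miRNA genes, and 0.587 times without C44B7.11. Left-out libraries gave ratios of 0.61 to 0.651 for nothing opposite, 0.886 to 0.931 for miRNA-, 2.36 to 3.39 for rRNA-, 1.7 to 2.16 for snRNA- and 0.987 to 1.27 for tRNA-opposite genes. No named gene past the threshold reversed. The block changed the calls named beside results and no other call of a gene named by the rule. Below about 10 counts per library most genes could not be tested, so a change at weakly covered loci, the ERGO-1 and most sperm genes among them, was not detectable at this depth.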
